A study of Mus musculus with 12 samples.

Results

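The histamine, leukotriene and prostaglandin receptors described here are 9 G protein-coupled receptors for lipid and amine mediators of allergy: the histamine receptors Hrh1, Hrh2 and Hrh4, the leukotriene receptors Ltb4r1, Ltb4r2 and Cysltr1, and the prostaglandin receptors Ptger2, Ptger4 and Ptgir. They were taken from the arrays by gene name, with every probe, whatever its signal, and they had 12 of the 55681 probes. The receptors were chosen by the scanner's background flags across the 4 groups, so which of them were above background on which arrays is a description, and the fits on the same arrays describe these arrays too. Of the 9 receptors, 5 passed the filter on dim probes and were among the 24958 genes tested (Hrh1, Hrh2, Ltb4r2, Cysltr1 and Ptger4). Ltb4r1, Ptger2 and Ptgir were too dim, and Hrh4 was set aside because the scanner software marked its spot as an outlier on 5 of 12 arrays.

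B cells from the spleens of female Balb/c mice were cultured for 2 days with a CD40 agonist, and LPS was present for the last 5 hours. All 4 groups share this activation, so no array shows resting cells. An IL-10 secretion assay, which catches the cytokine at the surface of the cell that releases it, and flow sorting then separated IL-10+ from IL-10- cells. Each of 4 groups had 3 arrays: IL-10+ cells of HDM mice and of control mice, and IL-10- cells of HDM mice and of control mice. The HDM mice had allergic asthma to house dust mite, and control mice did not. The labels give no ages. Whether replicates came from different animals or cultures is not stated either, so the p-values reflect only how these samples spread, which may be technical. The RNA was amplified by PCR before labelling, a method for small numbers of cells.

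Histamine acts through receptors that couple to different G proteins. H1 (Hrh1) couples to Gq and raises calcium, H2 (Hrh2) couples to Gs and raises cyclic AMP, and H4 (Hrh4) couples to Gi and is found mainly on blood-forming and immune cells. Leukotriene B4 binds BLT1 (Ltb4r1) with high affinity and BLT2 (Ltb4r2) with low affinity, and both are known for guiding leukocytes. The cysteinyl leukotriene receptor CysLT1 (Cysltr1) is the target of the asthma drug montelukast. Prostaglandin E2 raises cyclic AMP through EP2 (Ptger2) and EP4 (Ptger4), and prostacyclin does so through IP (Ptgir).

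Each signal comes from a probe of 60 bases. The starts of 5 probes, 30 bases each, are shown because the results turn on which of these receptors gave a signal; they come from the deposited scanner files.
Hrh2: gcttgcaagccacaactctcacaaaacttc
Ltb4r2: gcgctggaactacagccttggctttcttca
Ltb4r1: cctgacccacttctgtacctggaggagaac
Ptger4: aagcacattggctgtcattctgatgtgact
Ptger2: taaatgcagtcagaccaaatgaaattcatt

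On build mm9, the Hrh2 probe lies at chr13:54310290-54310349 on the plus strand. The Ltb4r2 probe lies at chr14:56381569-56381628 and the Ltb4r1 probe at chr14:56387175-56387234, both on the plus strand. The Ptger2 probe lies at chr14:45622004-45622063 on the plus strand, and the Ptger4 probe at chr15:5184419-5184478 on the minus strand. Exon and UTR positions were not assigned, since no annotation of that build was used here. Ltb4r1 and Ltb4r2 are neighbouring genes, but their probes share no run longer than 6 bases. None of the 12 receptor probes shares a run of 20 bases with any other of the 55681 probes on the array. In the RefSeq gene table of GRCm38.p6, Ltb4r2 overlaps Cideb and Hrh2 overlaps Gm16578. The transcript accession that the array gives for Hrh2 is not among those listed for Hrh2 in that table, so the name in the files was kept.

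Levels below are log2 ratios of a probe's processed signal to the 75th percentile of its array, and a probe's level is compared only with itself on other arrays. A probe is called above background where the scanner's flag says that it is well above it. The lowest levels so flagged were -4.45 to -3.81, depending on the array. Called means a limma p under 0.05 after Benjamini-Hochberg adjustment across the 24958 genes. In these bulk samples, fewer cells with a transcript and less transcript per cell cannot be told apart.

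The sort target Il10 was higher in the IL-10+ cells by 7.59 (log2) averaged over HDM and control mice (limma adjusted p = 0.0080). Cd9, the surface protein named in the series title, was higher by 4.52 (limma adjusted p = 0.0129). IL-10- HDM array 3 stood apart: over tested genes its mean correlation with the others was 0.775, whereas the rest had 0.867 to 0.901. It also had the fewest tested genes above background, 73.0%, against 78.6% to 90.9% on the others. Il10 was below background on it (-5.17), against levels of -0.10 and -0.05 on IL-10- HDM arrays 1 and 2. That low value enters the averaged Il10 difference. The 12 arrays lay on 2 slides. Slide 1 held all IL-10+ arrays and IL-10- control arrays 1 and 2, and slide 2 held IL-10- control array 3 and the 3 IL-10- HDM arrays. Within HDM mice, slide and sort therefore cannot be told apart.

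Detection split the receptors into 3 kinds. Hrh4 and Ptger4 were above background on all 12 arrays. Hrh2 on 9 and Ltb4r2 on 8 arrays were above background in every group except IL-10- HDM. The rest were dim nearly everywhere: Hrh1 passed on 4 arrays with its brightest probe, Cysltr1 on 3, Ptger2 on 1, and Ltb4r1 and Ptgir on 0. Cysltr1 lay just inside the minimum of 3 arrays, and another Hrh1 probe, with 2 arrays, just outside it.

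**Figure D1:**
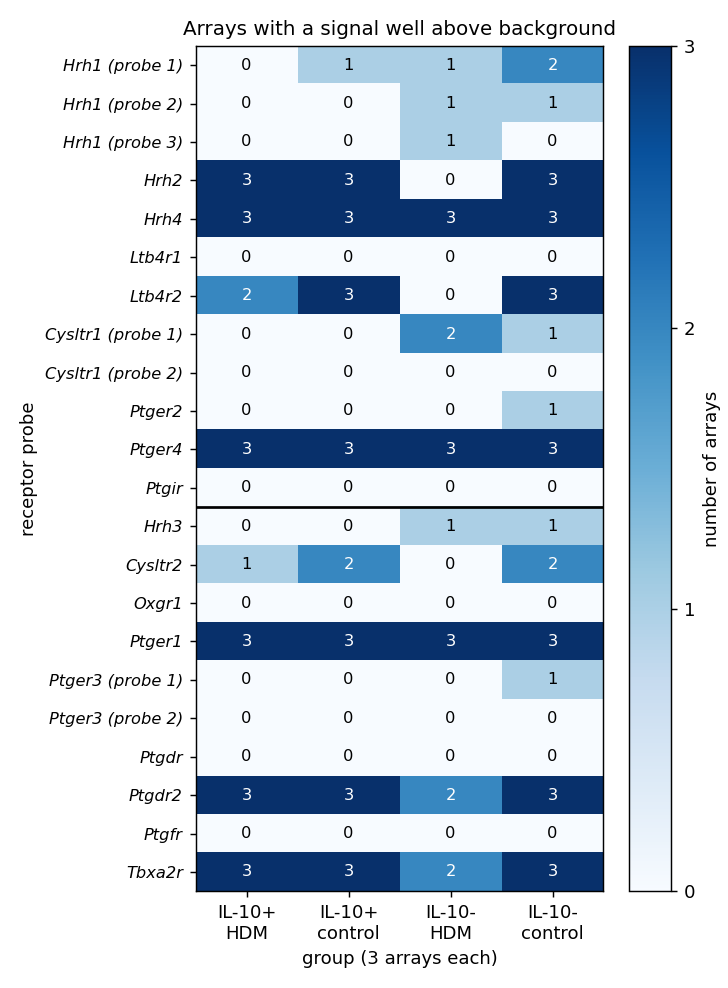
Number of arrays of 3 (colour and printed number) on which each receptor probe was well above background, by group, with the 9 receptors above the line and other receptors of the same ligands below it. Hrh2 reads 3, 3, 0 and 3 and Ltb4r2 reads 2, 3, 0 and 3 from left to right, while Hrh4 and Ptger4 read 3 in every group.

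**Figure D2:**
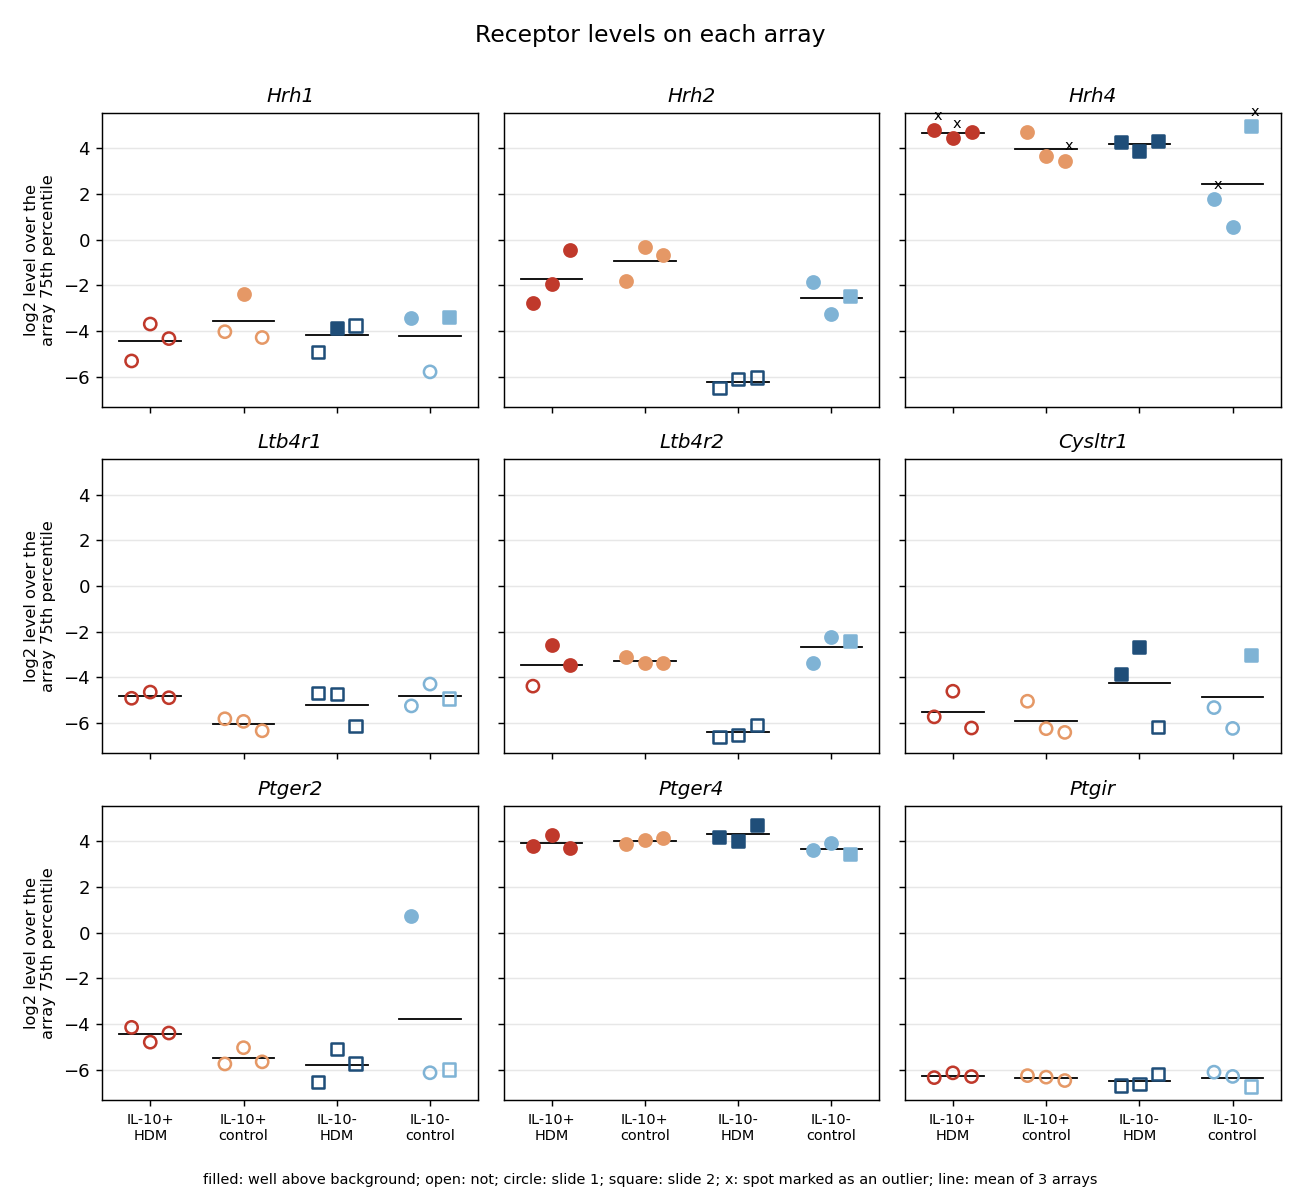
Level of the brightest probe of each receptor on every array (y axis, log2 over the array's 75th percentile) by group, with filled points above background, circles on slide 1, squares on slide 2, x for spots marked as outliers and lines for means of 3 arrays. The 3 IL-10- HDM points of Hrh2 (-6.50 to -6.04) and of Ltb4r2 (-6.59 to -6.09) lie below all others of their panels, and Ptger4 stays between 3.42 and 4.70.

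Hrh2, the Gs-coupled histamine receptor, was above background in 3 groups and below it in IL-10- B cells of HDM mice. Its levels were -2.77, -1.92 and -0.46 on the IL-10+ HDM arrays and -1.80, -0.32 and -0.66 on the IL-10+ control arrays. They were -6.50, -6.10 and -6.04 on the IL-10- HDM arrays, all below background, and -1.87, -3.26 and -2.48 on the IL-10- control arrays. The means were -1.72 ± 1.17 in IL-10+ HDM, -0.93 ± 0.77 in IL-10+ control, -6.21 ± 0.25 in IL-10- HDM and -2.53 ± 0.70 in IL-10- control cells (SD, n = 3). The arrays of the 3 groups with a signal overlapped in part, and the IL-10- HDM arrays lay below them all.

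In HDM mice, Hrh2 was higher in IL-10+ than in IL-10- cells by 4.50 with an SE of 0.62 (log2, limma adjusted p = 0.0259). These measured levels include the unreliable dim ones. With each dim array set at its lowest level above background, the group means differed 5.85-fold, a size that was not itself tested. Hrh2 was the only 1 of the 5 tested receptors called in that comparison, in which 0.168% of all tested genes were called. Non-overlap of the arrays alone was common there: 11.5% of tested genes were higher on every IL-10+ array, and Hrh2 and Ltb4r2 were among them.

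In control mice, where both sorts gave a signal, the Hrh2 difference was 1.61 with an SE of 0.62 (log2, IL-10+ minus IL-10-). It was not called (limma adjusted p = 1.00). The lowest IL-10+ control array (-1.80) lay just above the highest IL-10- control array (-1.87). Il10 and Cd9 were not called in control mice either, though their median difference was 5.68 (log2). A missing call in this comparison therefore says little. None of the 5 tested receptors was called there, where 0.016% of tested genes were called in all, and Hrh2 was the only 1 with an unadjusted p under 0.05, which 4.06% of tested genes had. Of all tested genes, 4.75% were likewise higher on every IL-10+ control array.

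Averaged over HDM and control mice, Hrh2 rose in IL-10+ cells by 3.05 with an SE of 0.44 (log2, limma adjusted p = 0.0234). It was the only 1 of the 5 tested receptors called, against 0.268% of all tested genes. With the 3 dim arrays set at their lowest level above background, the averaged difference was 2.08. With normexp background correction and an added offset of 50 it was 1.09 (limma adjusted p = 0.123). With slide as a block it was 3.11 with an SE of 0.80 (limma adjusted p = 0.424). The difference between the sort effects in HDM and in control mice was 2.89 with an SE of 0.88 and was not called (limma adjusted p = 0.736). None of the 5 receptors was called for that difference, and 0.012% of tested genes were, while 2 (Hrh2 and Ltb4r2) had an unadjusted p under 0.05, as did 6.46% of tested genes.

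Neither comparison of HDM with control mice called Hrh2. Among IL-10- cells its measured levels differed by -3.68 with an SE of 0.62 (log2, HDM minus control, limma adjusted p = 0.101). With the dim arrays at their lowest level above background, the mean was 3.32-fold lower in HDM mice, a size that was not itself tested. In IL-10+ cells the HDM minus control difference was -0.79 with a 95% confidence interval of -2.17 to 0.60 (log2), and the arrays overlapped.

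Hrh4, the Gi-coupled histamine receptor, gave a signal on every array, from a probe at chr18:13181302-13181361 on the plus strand of mm9. Its levels were 4.79, 4.44 and 4.73 on the IL-10+ HDM arrays, of which arrays 1 and 2 were marked as outliers, and 4.73, 3.68 and 3.47 on the IL-10+ control arrays, of which array 3 was marked. They were 4.30, 3.90 and 4.34 on the IL-10- HDM arrays, with none marked, and 1.77, 0.53 and 4.97 on the IL-10- control arrays, of which arrays 1 and 3 were marked. The IL-10- control arrays thus spread over more than 4 log2 units, and the only unmarked array among them was the lowest of all 12. With marked spots kept, a setting chosen after the data were seen, Hrh4 was called in none of the comparisons, and the averaged IL-10+ minus IL-10- difference was 1.01 with an SE of 0.64 (limma adjusted p = 0.675).

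Hrh1, the Gq-coupled histamine receptor, was near the limit of detection with all 3 of its probes. The brightest, at chr6:114433129-114433188, was above background on IL-10+ control array 2 (-2.39), on IL-10- HDM array 2 (-3.88) and on arrays 1 (-3.45) and 3 (-3.39) of the IL-10- control group. A second probe was above background on array 2 of IL-10- HDM (-3.80) and on array 2 of IL-10- control (-3.59). The third was above background on IL-10- HDM array 2 alone (-3.10), which made it the only array on which all the probes gave a signal. No IL-10+ HDM array gave an Hrh1 signal with any probe. The fit called Hrh1 in no comparison, and its averaged IL-10+ minus IL-10- difference was 0.19 with a 95% confidence interval of -1.01 to 1.39 (log2).

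Ltb4r2, which encodes the low-affinity leukotriene B4 receptor, was below background in the same group as Hrh2. Its levels were -4.38, -2.58 and -3.44 on the IL-10+ HDM arrays, the -4.38 below background, and -3.08, -3.36 and -3.38 on the IL-10+ control arrays. They were -6.59, -6.51 and -6.09 on the IL-10- HDM arrays, all below background, and -3.37, -2.24 and -2.42 on the IL-10- control arrays. Mean levels were -3.46 ± 0.90 in IL-10+ HDM, -3.27 ± 0.16 in IL-10+ control, -6.40 ± 0.27 in IL-10- HDM and -2.68 ± 0.61 in IL-10- control cells (SD, n = 3). Again the IL-10- HDM arrays lay below all the others, which overlapped.

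Among IL-10- cells, Ltb4r2 fell in HDM mice by a measured -3.72 with an SE of 0.48 (log2, HDM minus control, limma adjusted p = 0.0339). These measured levels include the dim ones. With each dim array at its lowest level above background, the mean was 3.00-fold below control mice, a size that was not itself tested. Ltb4r2 was the only 1 of the 5 tested receptors called there, and 0.0481% of all tested genes were called. Hrh2 and Ltb4r2 were lower on every IL-10- HDM array than on any IL-10- control array, as were 6.15% of tested genes.

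In IL-10+ cells the Ltb4r2 difference between HDM and control mice was -0.19 with a 95% confidence interval of -1.25 to 0.87 (log2). None of the 5 tested receptors was called in that comparison, in which 0.00401% of tested genes, a single gene, were called, and at an unadjusted p under 0.05 none of the 5 passed, against 2.28% of tested genes.

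Between the sorts in HDM mice, the measured Ltb4r2 difference was 2.93 (log2, IL-10+ minus IL-10-) and just missed the threshold (limma adjusted p = 0.0564). There 2 of 3 IL-10+ HDM arrays were above background. With the IL-10- HDM arrays at their lowest level above background, the means differed 1.74-fold, a size that was not itself tested. In control mice the sign was the other way, with a difference of -0.60 and a 95% confidence interval of -1.66 to 0.46 (log2, IL-10+ minus IL-10-). The difference between these sort effects was 3.53 with an SE of 0.67 and was not called (unadjusted p = 3.66e-04, limma adjusted p = 0.353). Averaged over HDM and control mice it was 1.17 with an SE of 0.34 (limma adjusted p = 0.276), and 0.15 with the 4 dim arrays at their lowest level above background.

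Slide moved with these results. IL-10- control array 3, on slide 2 with the IL-10- HDM arrays, was above background for both Hrh2 (-2.48) and Ltb4r2 (-2.42). Within slide 2 the HDM minus control difference in IL-10- cells was -3.73 for Hrh2 and -3.98 for Ltb4r2 (log2), neither called, with a single control array. With slide as a block, the slide effect came from the IL-10- control arrays alone, the only group on both slides. The Ltb4r2 difference was then again -3.98, with an SE of 0.70 (limma adjusted p = 0.200). It rests on the same slide 2 arrays, so it is not a second check. With the same block, the Hrh2 sort difference in HDM mice was 4.58 with an SE of 1.18 (limma adjusted p = 0.376), and that block left no gene called in either comparison.

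A gap in a single group was most frequent for IL-10- HDM cells. Hrh2 and Ltb4r2 were 2 of 217 tested genes (0.869%) above background on 0 of 3 IL-10- HDM arrays and on at least 2 of 3 arrays of each other group. The same pattern with the gap in IL-10+ HDM held 0.188% of tested genes, in IL-10+ control 0.268% and in IL-10- control 0.16%. By that rule both genes were below background on all 3 IL-10- HDM arrays, among them array 3, which stood apart. The part of array 3 in the number of such genes was not tested.

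Cideb, which overlaps Ltb4r2 on the other strand and encodes a lipid droplet protein, differed in the opposite direction with its brightest probe, without being called. That probe had levels of 1.58, 1.39 and 2.06 on the IL-10- HDM arrays, against -0.60, -0.16 and 1.45 on the IL-10- control arrays. The HDM minus control difference among IL-10- cells was 1.45 with an SE of 0.65 (log2, limma adjusted p = 0.545). The other Cideb probe, also above background on all 12 arrays, averaged 0.40 in IL-10- HDM and 0.23 in IL-10- control cells, and the arrays overlapped. Nop9, the gene beyond Cideb in the RefSeq table, was above background on 1 IL-10+ HDM array and on 2 in IL-10+ control, on 0 in IL-10- HDM and on 2 in IL-10- control. Its levels were -4.67, -5.74 and -5.83 on the IL-10- HDM arrays, against -1.04, -6.31 and -3.08 on the IL-10- control arrays. That difference was -1.93 with an SE of 1.34 (log2, limma adjusted p = 0.651), the same sign as for Ltb4r2, and the arrays overlapped.

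Ltb4r1, the high-affinity leukotriene B4 receptor next to Ltb4r2, was above background on none of the 12 arrays, with levels of -6.33 to -4.29. Ltb4r1 does pass a more lenient flag (signal positive and above the local background by the scanner's test) on 10 arrays. Cysltr1 was above background on IL-10- HDM arrays 1 (-3.83) and 2 (-2.67) and on IL-10- control array 3 (-3.03), and on no IL-10+ array. Those 3 arrays all lay on slide 2. Its other probe was above background nowhere. The averaged IL-10+ minus IL-10- difference of Cysltr1 was -1.16 with a 95% confidence interval of -2.73 to 0.41 (log2). Cysltr1 passed the filter through IL-10- arrays alone, so the filter bears on the sign of that difference. The gene was called in no comparison.

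Ptger4, which encodes the prostaglandin E2 receptor EP4, was above background on every array and called in no comparison. Its levels were 3.80, 4.27 and 3.68 on the IL-10+ HDM arrays and 3.89, 4.04 and 4.16 on the IL-10+ control arrays. They were 4.18, 4.01 and 4.70 on the IL-10- HDM arrays and 3.64, 3.93 and 3.42 on the IL-10- control arrays. On average it stood at 3.92 ± 0.31 in IL-10+ HDM, 4.03 ± 0.14 in IL-10+ control, 4.30 ± 0.36 in IL-10- HDM and 3.66 ± 0.25 in IL-10- control cells (SD, n = 3). From high to low the order was IL-10- HDM, both IL-10+ groups and IL-10- control, and neighbours in it overlapped.

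For Ptger4 the averaged IL-10+ minus IL-10- difference was -0.01 with a 95% confidence interval of -0.50 to 0.49 (log2). The sort differences were -0.38 in HDM mice and 0.37 in control mice. Its largest difference was between IL-10- HDM and IL-10- control cells, 0.64 with an interval of -0.06 to 1.33 (log2, limma adjusted p = 0.572), and these 6 arrays did not overlap, with 4.01 as the lowest HDM level and 3.93 as the highest control level. Among all tested genes, 5.73% were likewise higher on every IL-10- HDM array.

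Ptger2, the other Gs-coupled prostaglandin E2 receptor, was above background on IL-10- control array 1 alone, with a level of 0.72. The other 11 arrays ran from -6.55 to -4.15, and the remaining IL-10- control arrays were at -6.14 and -5.99. The group means of Ptger2 therefore rest on that array, and the gene was not tested. Ptgir, the prostacyclin receptor, was above background on no array, with levels of -6.74 to -6.11 on a probe at chr7:17496120-17496179, and it did not pass the lenient flag either.

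**Figure D3:**
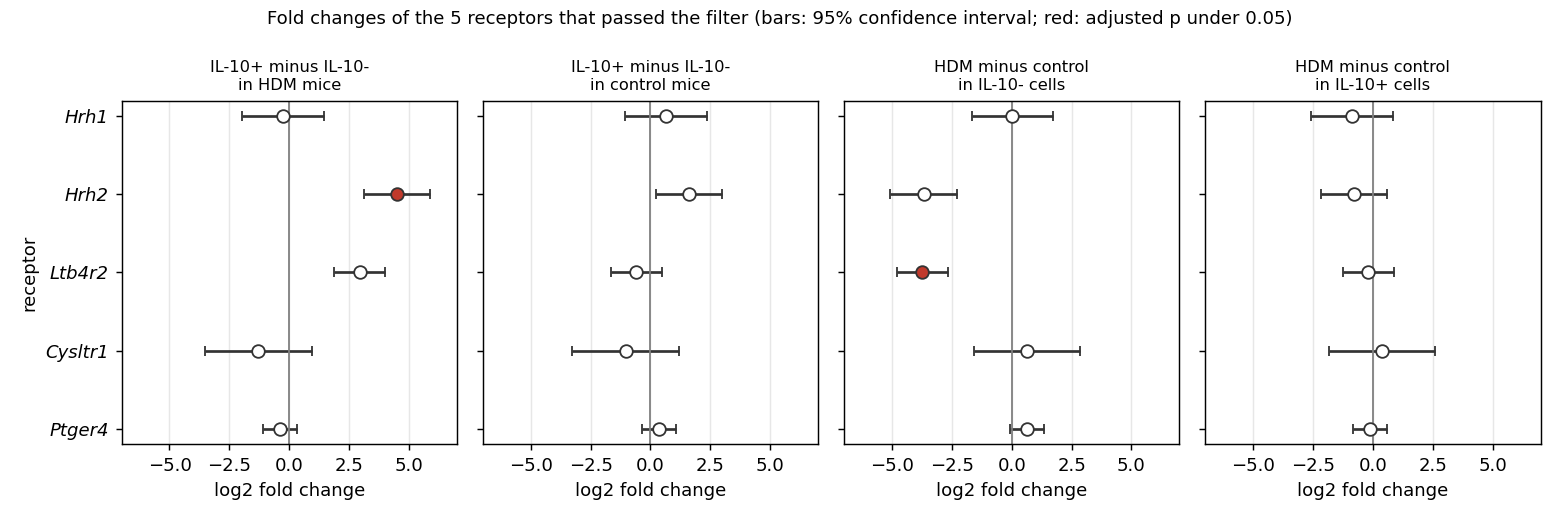
Log2 fold changes (x axis) of the 5 tested receptors in 4 comparisons, with 95% confidence intervals as bars and red points at an adjusted p under 0.05. Hrh2 at 4.50 in HDM mice and Ltb4r2 at -3.72 in IL-10- cells are the red points, and the Ptger4 intervals all include 0.

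Other receptors for the same ligands gave a similar mix. Ptger1, the prostaglandin E2 receptor that raises calcium, was above background on 12 arrays, and Ptgdr2 (Gpr44 on the array), the prostaglandin D2 receptor of type 2 immune cells, and Tbxa2r, the thromboxane receptor, on 11. The array missing in both was IL-10- HDM array 3. Cysltr2, the second cysteinyl leukotriene receptor, was above background on 5 arrays, of which 1 was in IL-10+ HDM, 2 in IL-10+ control, 0 in IL-10- HDM and 2 in IL-10- control. Hrh3 passed on 2 arrays, Ptger3 on 1, and Ptgdr, Ptgfr and Oxgr1 on 0. Of these 9 receptors 4 were tested and none was called in any comparison. Over all tested genes 0.00401% to 0.268% were called, depending on the comparison. The absence of calls here and in the gene lists below therefore says little about those genes.

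Genes that make or break down the ligands were in part below background. Of 7 histamine genes 3 were tested and none was called in any comparison. Hdc, which makes histamine, was above background on 2 arrays, both IL-10- control, and Hnmt, which methylates it, on 10. Hnmt had levels of -4.29 ± 1.63 in IL-10+ HDM and -1.62 ± 2.48 in IL-10- HDM cells (mean ± SD, n = 3), a difference of -2.67 (log2, limma adjusted p = 0.363). The other 2 tested histamine genes had a positive sort difference in HDM mice. In control mice all 3, Hnmt included, had a positive one.

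Of 13 leukotriene genes 9 were tested, and 0 were called in either direction in the comparisons made. Alox5, the enzyme that starts leukotriene synthesis, was above background on 1 array and its partner Alox5ap on 3. The later enzymes Lta4h, which makes leukotriene B4, and Ltc4s, which makes leukotriene C4, were above background on 12. The list's median averaged difference was -0.01, beside 0.04 over all tested genes (log2, IL-10+ minus IL-10-).

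Of 15 prostaglandin genes 12 were tested and again none was called. Ptgs2 (cyclooxygenase-2), Ptges, which makes prostaglandin E2, and Hpgds, which makes prostaglandin D2, were above background on all 12 arrays, and the phospholipase Pla2g4a on 11. Ptgs1 and the breakdown enzyme Hpgd passed on 0 arrays and the importer Slco2a1 on 1. Ptgs2 had levels of 0.11 ± 0.51 in IL-10+ HDM, 0.15 ± 0.81 in IL-10+ control, -0.46 ± 0.50 in IL-10- HDM and -1.16 ± 0.97 in IL-10- control cells (mean ± SD, n = 3). Its averaged IL-10+ minus IL-10- difference was 0.94 (log2, limma adjusted p = 0.535). The list's median averaged difference was 0.22, beside 0.04 over all tested genes.

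Downstream of the receptors, 25 of 27 cyclic AMP genes and 24 of 25 genes of Gq signalling and receptor regulation were tested. None was called in any comparison, where at most 0.268% of all tested genes were. Gnas, which encodes the Gs alpha subunit, and the cyclic AMP-responsive factor Crem were above background on all 12 arrays, as were the phosphodiesterase Pde4b, the arrestin Arrb2 and the G protein brake Rgs1. The adenylyl cyclase Adcy7 was above background on 8 arrays. Pde4d had the largest difference between sort effects of the named genes, 4.90 with an SE of 1.69 (log2, HDM minus control, limma adjusted p = 0.737).

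The receptor kinase Grk5 was above background on 1 of 3 IL-10- HDM arrays and on all 3 arrays of every other group, and Rgs2 on 2 of 3 and all 3. In HDM mice the IL-10+ minus IL-10- difference was 3.00 for Grk5 (log2, limma adjusted p = 0.355) and 2.42 for Rgs2 (limma adjusted p = 0.628). In that comparison the median was 0.46 over the cyclic AMP genes and 0.42 over the Gq and regulation genes, beside 0.16 over all tested genes. Among IL-10- cells the HDM minus control medians were -0.27 and -0.33, beside -0.04 over all tested genes. Both comparisons use the IL-10- HDM group, which lay on slide 2 and includes array 3. Without that group, the sort medians in control mice were -0.08 and -0.24, beside -0.04. The HDM minus control medians in IL-10+ cells were 0.04 and 0.01, beside 0.07. These medians were not tested.

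The sorted cells carried B cell transcripts on every array: 7 or 8 of 8 B cell markers were above background on the IL-10- HDM arrays and all 8 elsewhere. Markers of other cell types varied in how many gave a signal. Of 9 mast cell and basophil markers, 1 to 3 were above background on the IL-10+ HDM, 1 to 2 on the IL-10+ control, 2 to 3 on the IL-10- HDM and 2 to 5 on the IL-10- control arrays, with the tryptase Tpsb2 above it on all 12 arrays, Mcpt8 on 6, and Cpa3 and Gata2 on none. Their summed level, as a multiple of the array's 75th percentile, was 1.72 to 2.84 in IL-10+ HDM and 1.58 to 2.58 in IL-10+ control cells. It was 2.13 to 5.90 in IL-10- HDM and 1.94 to 3.98 in IL-10- control cells. The 5.90 was on IL-10- HDM array 3, with 2.13 and 2.34 on arrays 1 and 2. The 3.98 was on IL-10- control array 1, with 3.27 and 1.94 on arrays 2 and 3. Of 8 neutrophil markers 0 to 3 were above background on an array, with Camp on 8 arrays, Elane on 5, of which 3 were IL-10- HDM, and S100a8 and Ltf on none. Of 5 eosinophil markers 0 to 3 were above background on an array, with Ear1 on 8 arrays and Prg2 on 1.

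Dendritic cell markers above background were fewest on the IL-10- HDM arrays, and monocyte marker counts there overlapped those of the IL-10+ control arrays. Of 8 monocyte and macrophage markers, 6 were above background on each IL-10+ HDM array, 5 to 7 on the IL-10+ control, 4 to 5 on the IL-10- HDM and 6 to 7 on the IL-10- control arrays. Their summed level was 10.8 to 14.3 in IL-10+ HDM, 7.37 to 12.9 in IL-10+ control, 8.53 to 10.3 in IL-10- HDM and 9.60 to 18.1 in IL-10- control cells. Csf1r, Cd68 and Fcgr1 were above background on all 12 arrays, Emr1 on 9 with none in IL-10- HDM, and Ccr2, the chemokine receptor of classical monocytes, on no array.

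Of 7 dendritic cell markers, 2 to 3 were above background on the IL-10- HDM arrays and 4 on every other array. Their summed level was 70.1 to 72.5 in IL-10+ HDM, 58.9 to 78.1 in IL-10+ control, 75.9 to 93.5 in IL-10- HDM and 59.6 to 86.8 in IL-10- control cells, so the sum was not lower in the IL-10- HDM cells. Flt3 and Siglech were above background on 12 arrays, Zbtb46 on 11, Xcr1 on 8 with none in IL-10- HDM, and Itgax and Clec9a on none.

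The summed level of T cell markers was lower on every IL-10- HDM array than on any IL-10+ HDM array, and overlapped the other groups. Of 8 such markers, 6 to 7 were above background on the IL-10+ HDM, 6 to 7 on the IL-10+ control, 5 to 6 on the IL-10- HDM and 5 to 6 on the IL-10- control arrays. Their summed level was 4.59 to 5.35 in IL-10+ HDM, 3.25 to 5.33 in IL-10+ control, 2.34 to 4.01 in IL-10- HDM and 3.98 to 6.36 in IL-10- control cells. Cd3e, Cd4, Cd8a and Lck were above background on all 12 arrays, and Cd3d and Trat1 on 2 each, none of them in either IL-10- group. The part of monocytes, dendritic cells and T cells in the receptor levels was not tested.

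The genes most like Hrh2 across the 12 arrays, of 13770 ranked symbols, were Micall1 (Pearson r = 0.957), Msmp (0.943) and Ikzf4 (0.931). For Ltb4r2 they were Ccdc32 (0.954), Dennd3 (0.924) and Pydc4 (0.920). All of these but Msmp were above background on 0 of 3 IL-10- HDM arrays. Over the 9 arrays without IL-10- HDM the correlations were 0.467 to 0.761 for the Hrh2 genes and 0.434 to 0.688 for the Ltb4r2 genes.

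Hrh2 and Ltb4r2 themselves had r = 0.813 over 12 arrays and r = -0.300 over the 9 arrays without IL-10- HDM, so their likeness rests on the group in which both were dim. For Ptger4 the most similar genes were Ero1lb (0.909), Zzef1 (0.885) and Klf9 (0.884), with 0.777 to 0.857 over the 9 arrays. The arrays share their scaling and groups, so these values describe the arrays and were not tested.

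**Figure D4:**
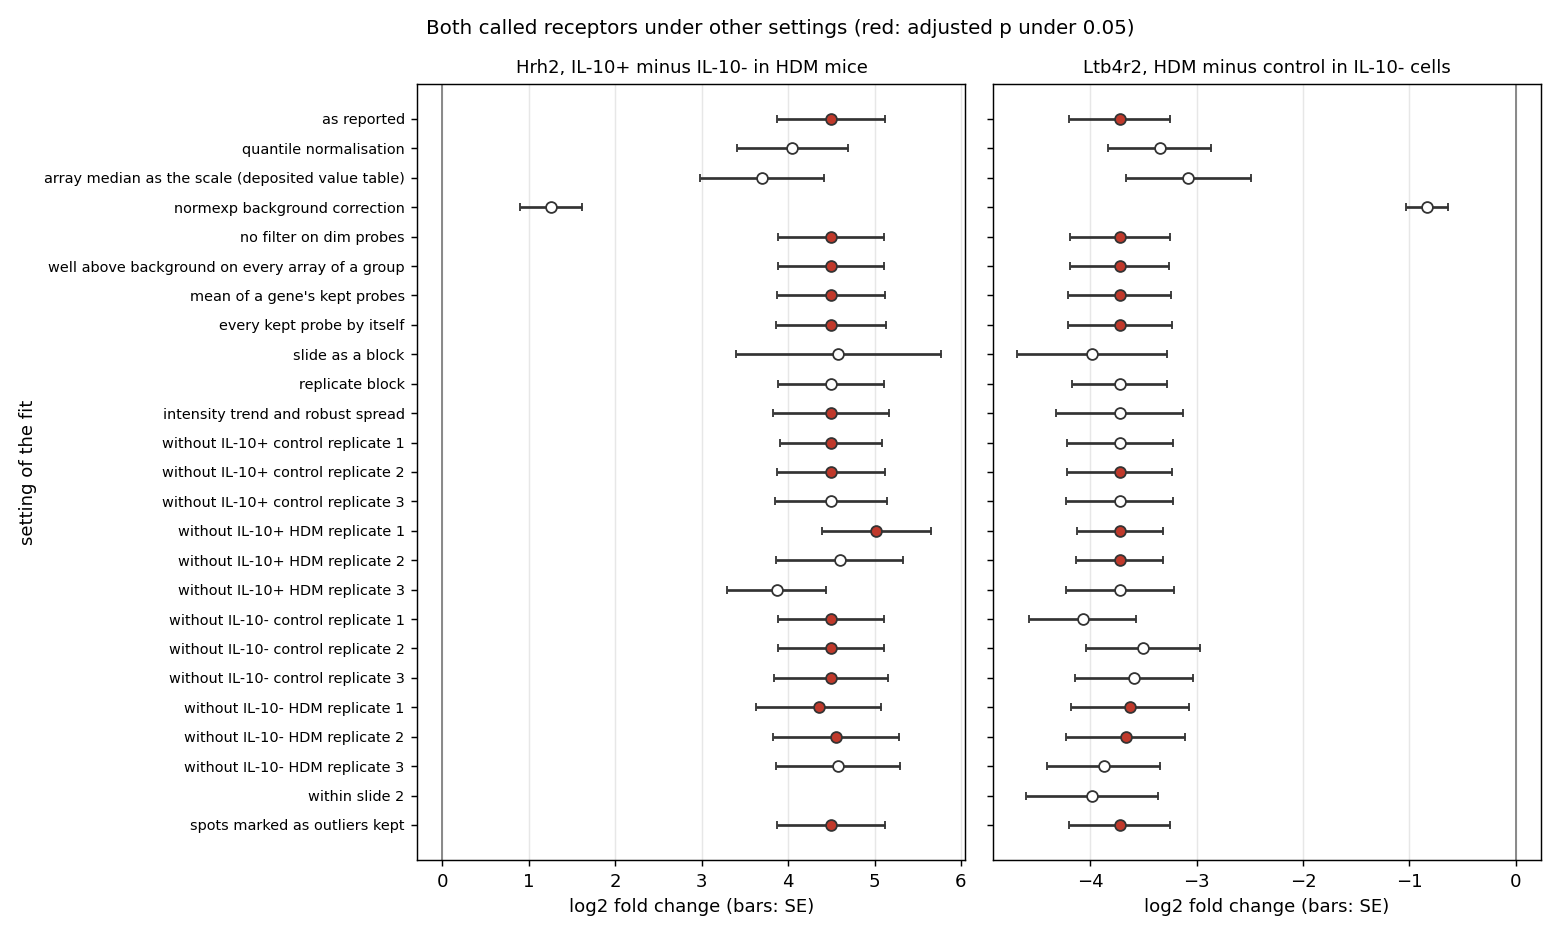
Log2 fold change (x axis, bars are SE) of Hrh2 in HDM mice and of Ltb4r2 in IL-10- cells under each setting of the fit (y axis), with red points at an adjusted p under 0.05. Every point keeps the sign of the reported value. The smallest sizes, 1.26 for Hrh2 and -0.84 for Ltb4r2, come with normexp background correction and its offset of 50.

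Both called receptors kept their sign under every setting in the plot of settings, but several settings ended the call. The normexp background correction was run with an added offset of 50, which lifts dim signals and shrinks the differences among them. In that setting the Hrh2 difference in HDM mice was 1.26 (limma adjusted p = 0.192). The Ltb4r2 difference in IL-10- cells was -0.84 (limma adjusted p = 0.281). The part of the offset in these sizes was not tested. Hrh2 in HDM mice lost its call without array 2 or 3 of IL-10+ HDM, array 3 of IL-10+ control or array 3 of IL-10- HDM, with adjusted p of 0.0556 to 0.113. Averaged over HDM and control mice, it lost its call without array 2 of IL-10+ HDM, array 3 of IL-10- HDM, or array 2 or 3 of either control group, with adjusted p of 0.0525 to 0.0812. Ltb4r2 in IL-10- cells lost its call without array 3 of either HDM group, array 1 or 3 of IL-10+ control, or any array of IL-10- control, with adjusted p of 0.0634 to 0.137. Ltb4r2 gained a call between the sorts in HDM mice without array 1 of IL-10+ HDM or array 1 of IL-10- control, with adjusted p of 0.0437 and 0.0482.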

How the data were processed

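Arrays of Agilent design 028005, annotated on mm9, were read with Feature Extraction 10.7.3.1, per the file headers. Per the labels' protocols, mRNA was isolated with beads, amplified by PCR as cDNA and labelled with Cy3. The deposited scanner files give intensity values: the processed signal is background-subtracted and not normalised between arrays, per the file headers. They also hold 0 or 1 flags per spot, a kind of other value deposited by the authors. In the value table the authors deposited, each cell is a ratio of processed signal to array median, as recomputation found with a largest deviation of 0.00077%.

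Here each array's processed signals were divided by their 75th percentile and taken as log2. Probes well above background on at least 3 of 12 arrays were kept (37643). Another 84, with every spot an outlier on some array, were left out. Each gene had 1 probe, the one with the highest mean over 12 arrays. limma 3.58.1 in R 4.3.3 (lmFit, eBayes) fitted 4 group means with 8 residual degrees of freedom. The number of arrays limits the precision. The script was tested on simulated data. The receptors and lists were chosen with earlier results of these data known. The genes named are every receptor, the listed family members, a fixed set of pathway genes, Il10, Cd9, neighbours, and the 3 genes most like each receptor above background on at least 6 arrays and tested. Alternatives covered normalisation, background, filter, probe choice, blocks and left-out arrays.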

Additional observations from a re-analysis of the deposited data

How the results depend on the processing

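No result changed sign among called values under any setting run. The number of called receptors in the averaged sort comparison (1 as reported) was 0 with the deposited value table's scale, normexp correction, slide as a block and the replicate block, and 0 to 1 with each array left out. In the sort comparison in HDM mice (1 as reported) it was 0 with quantile normalisation, the value table's scale, normexp, slide as a block and the replicate block, 2 when a probe had to be above background on every array of a group (Hrh2 and Ltb4r2), and 0 to 2 with each array left out. For HDM against control in IL-10- cells (1 as reported) it was 0 with quantile normalisation, the value table's scale, normexp, slide as a block, the replicate block, an intensity trend with robust spread and within slide 2, and 0 to 1 with each array left out. No label ties a number to a mouse or culture. Between IL-10+ and IL-10- arrays of the same kind of mice, the deviations of same-numbered arrays correlated by 0.0191 to 0.149 (6 of 6 pairs positive, 2 over 0.1) and those of other pairs by -0.193 to 0.0878, and 10 of 12 arrays correlated best with their own number, a hint from the data. Over all 18 same-numbered pairs the range was -0.142 to 0.149, but these include pairs of HDM with control mice, which cannot share a mouse. The numbers were not taken as pairs, since no label gives a pairing. The replicate block joins same-numbered arrays of all 4 groups, so a pairing of the sorts within each kind of mice was not fitted. Under the replicate block the adjusted p was 0.0581 for Hrh2 averaged, 0.0626 for Hrh2 in HDM mice and 0.0709 for Ltb4r2 in IL-10- cells.

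By the lenient flag, which asks that a signal be positive and above the local background, the arrays on which a probe passed numbered 12, 11, 10, 10, 7 and 3 for the brightest Hrh1 probe, another Hrh1 probe, Ltb4r1, Ptger2 and the 2 Cysltr1 probes, against 4, 2, 0, 1, 3 and 0. Hrh2 passed it on 10 arrays, 1 of them IL-10- HDM, and Ltb4r2 on 9, with 3 of 3 IL-10+ HDM and 0 of 3 IL-10- HDM arrays. Ptgir passed it on 0 arrays, as before.

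Over all genes, in the order averaged, control mice, HDM mice, IL-10+ and IL-10- cells and difference, 67, 4, 42, 1, 12 and 3 were called as reported. The counts were 26, 2, 7, 1, 6 and 0 with the value table's scale, 73, 10, 24, 0, 4 and 0 with normexp, 79, 7, 29, 3, 10 and 0 with quantile normalisation, 0, 4, 0, 1, 0 and 0 with slide as a block, and 36, 1, 17, 1, 3 and 0 with the replicate block. They were 99, 4, 73, 1, 19 and 3 with the filter on every array of a group, 61, 2, 35, 1, 10 and 2 without a filter, 98, 3, 43, 1, 9 and 0 with the mean of a gene's probes, 130, 6, 74, 2, 27 and 0 with every probe by itself, and 95, 0, 34, 0, 7 and 0 with an intensity trend. With each array left out they ran over 31 to 139, 1 to 7, 5 to 214, 1 to 2, 3 to 130 and 0 to 14. The causes of these differences were not tested.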

Other observations

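Ptger2 and Ptger3 were each above background on IL-10- control array 1 alone, at levels of 0.72 and -0.31. That array had 521 of 34783 genes above background on no other array, of which 59 lay above a level of -1. IL-10- HDM array 3 had 334 such genes, 122 of them above -1, and the other 10 arrays had 103 to 349, with 1 to 26 above -1. IL-10- HDM array 3 was also the only array below background for 1509 genes, Ptgdr2 and Tbxa2r among them, against 26 to 402 for the others.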
